A study of Mus musculus with 10 samples.

Results

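The transcripts of 8 genes for serine proteases and their Kunitz inhibitors were followed across the 5 groups of 4T1-T cells. They encode matriptase (St14), prostasin (Prss8), the secreted proteases Prss22, Prss23 and Htra1, the convertase furin (Furin), and the inhibitors HAI-1 (Spint1) and HAI-2 (Spint2). They were taken by gene name as 8 of 23479 entries in the deposited table, and all 8 passed the expression filter. RNA sequencing was done on cultured cells of 4T1-T, a clone that goes back to 1 cell of the mouse mammary carcinoma line 4T1. Every group had been infected to carry a short hairpin RNA, with 2 libraries (A and B) each. The groups were shSerpine2-1 and shSerpine2-2 (separate hairpins against Serpine2), shSlpi-1 and shSlpi-2 (separate hairpins against Slpi), and shRenilla, the control hairpin. The labels do not say whether A and B came from separate cultures or how the infected cells were selected. P-values therefore cover the spread between libraries A and B alone, and this spread may be technical. A value is a normalized read count, and a fold change is on the log2(value + 1) scale.

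As background, matriptase and prostasin are membrane-bound, trypsin-like proteases that promote each other's activation on epithelial cells, and HAI-1 and HAI-2 are membrane proteins whose Kunitz domains block both enzymes. Their balance is known to matter for epithelial barriers and for carcinoma growth. Serpine2 (protease nexin-1), which 2 of the hairpins target, is a secreted serpin that inhibits thrombin, urokinase and also prostasin. Slpi, secreted by many epithelia, blocks neutrophil elastase. Furin cuts precursor proteins in the secretory pathway, and Htra1 is a secreted protease that degrades matrix proteins.

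Serpine2 stood at 134 ± 7.94 normalized reads in shSerpine2-1 and 501 ± 17.5 in shSerpine2-2, against 3201 ± 79.1 in shRenilla (SD, n = 2 each). These means were 23.9-fold and 6.38-fold lower. Slpi stood at 146 ± 1.09 in shSlpi-1 and 68.3 ± 10.5 in shSlpi-2, against 1251 ± 87.6 in shRenilla, which is 8.58-fold and 18.3-fold lower. Slpi was also low in shSerpine2-1 (370 ± 62.3, 3.38-fold lower than shRenilla), and Serpine2 in shSlpi-1 (1336 ± 7.76, 2.40-fold lower) and shSlpi-2 (1642 ± 126, 1.95-fold lower). Below, "with Serpine2 lowered" and "with Slpi lowered" name the target of the hairpins, and not a change of that inhibitor alone. Depth was 15877431 to 24026620 reads a library. All 6 epithelial markers (Epcam, Cdh1, Krt8, Krt18, Krt7 and Cldn7) passed the filter. Their summed level was 25050 to 25416 in shSerpine2-1, 26312 to 26524 in shSerpine2-2, 26679 to 27201 in shSlpi-1 and 30654 to 30666 in shSlpi-2, against 21077 to 21686 in shRenilla. None of 4 endothelial markers (summed level 6.15 to 72.0 over the 10 libraries), 1 of 4 leukocyte markers (Cd68) and 1 of 4 fibroblast markers (Pdgfra) passed the filter. Summed fibroblast markers were 453 to 773 in the 8 knockdown libraries, against 884 to 903 in shRenilla. The entry Rn45s, ribosomal RNA, took 6.88% and 6.91% of reads in shSlpi-2, 0.881% to 1.96% in the other knockdown libraries and 1.00% and 1.21% in shRenilla. The part of the epithelial level, of Pdgfra and of Rn45s in the results below was not tested. In bulk RNA, fewer cells of a type and less RNA per cell cannot be told apart.

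Of the 8 transcripts, St14, Prss23, Htra1 and Spint2 were higher in cells with either inhibitor lowered than in shRenilla. Prss22 was lower with Serpine2 lowered. Over both Serpine2 hairpins, 5 of 8 transcripts changed (4 higher, 1 lower), beside 21.5% of the 12299 genes tested (10.7% higher, 10.8% lower; limma, adjusted p under 0.05). Over both Slpi hairpins, 4 of 8 changed, all higher, beside 34.8% of genes (16.5% higher, 18.3% lower). The median log2 fold change of the 8 was 0.15 with Serpine2 lowered and 0.37 with Slpi lowered, beside medians of -0.00 and -0.01 over all genes tested. The knockdown libraries did not overlap the shRenilla libraries for 5 of 8 transcripts in each comparison, beside 37.7% and 40.1% of genes. The comparisons share the same 2 shRenilla libraries, so they are not independent of each other. With each hairpin line counted as 1 unit, 0 of 8 transcripts passed with limma in either comparison, and so did 0 of all genes tested. Of the 8, 1 and 4 had an unadjusted p under 0.05, and the share of all genes at that p was not computed.

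**Figure D1:**
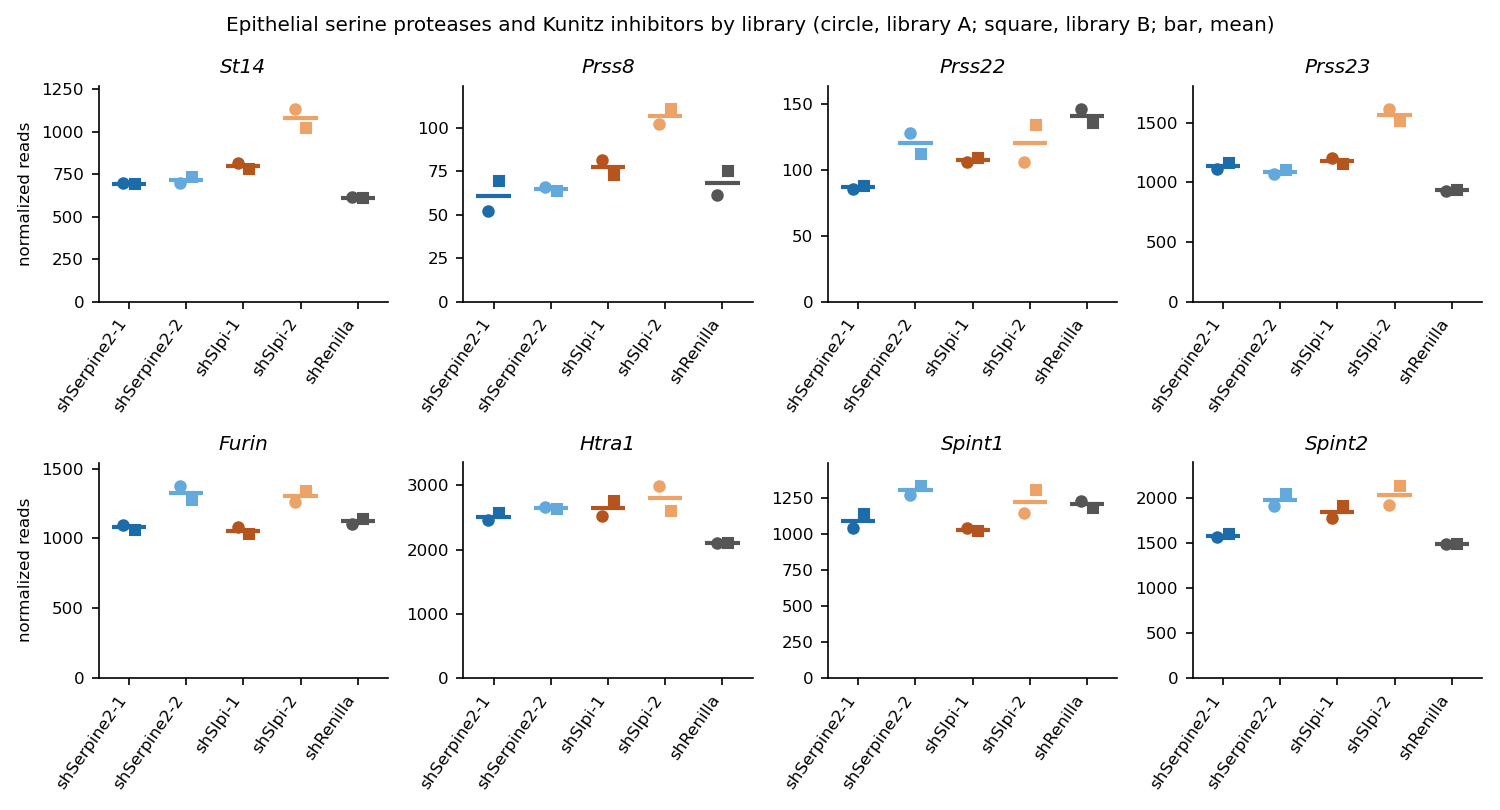
Normalized reads of each gene (vertical axis, from 0) in the 10 libraries, by group along the horizontal axis; circles are library A, squares library B and bars the mean of a group. St14, Prss23 and Prss8 stand highest in shSlpi-2, Prss22 lowest in shSerpine2-1, and every knockdown library of Htra1 and Spint2 is above both shRenilla libraries.

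St14 (ENSMUSG00000031995.9, minus strand of chr9:31089402-31131853, GRCm38) encodes matriptase, the membrane protease at the head of this system. Its level was 698 and 691 normalized reads in shSerpine2-1, 698 and 735 in shSerpine2-2, 817 and 779 in shSlpi-1 and 1133 and 1024 in shSlpi-2, against 614 and 610.4 in shRenilla. All 8 knockdown libraries were above both shRenilla libraries, and the Slpi libraries were above all Serpine2 libraries. St14 rose with Slpi lowered (log2 fold change 0.60, SE 0.06, limma adjusted p = 1.86e-06), in shSlpi-1 (0.38, adjusted p = 0.00150) and in shSlpi-2 (0.81, adjusted p = 2.04e-07). With Serpine2 lowered it rose by less (0.20, SE 0.06, limma adjusted p = 0.0244), and the single lines gave 0.23 in shSerpine2-2 (adjusted p = 0.0246) and 0.18 in shSerpine2-1 (adjusted p = 0.114). The call over both Serpine2 hairpins ended without shRenilla A or B, shSerpine2-1 A or B, or shSerpine2-2 B (0.19 to 0.21, limma adjusted p 0.0577 to 0.167), and with no filter on low values (adjusted p = 0.0511). That of shSerpine2-2 ended without any 1 of its own or the shRenilla libraries (0.19 to 0.26, limma adjusted p 0.0620 to 0.183) and with quantile normalization (adjusted p = 0.0523), while shSerpine2-1 passed without shSlpi-2 A or B (adjusted p = 0.0433 and 0.0423).

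Prss8 (minus strand of chr7:127925716-127930104) encodes prostasin, the lipid-anchored partner of matriptase and a known target of protease nexin-1. It had 52.4 and 69.7 normalized reads in shSerpine2-1, 65.9 and 63.6 in shSerpine2-2, 81.7 and 72.8 in shSlpi-1 and 102.5 and 111 in shSlpi-2, against 61.1 and 74.9 in shRenilla. The shSlpi-2 libraries were above all others, and those of the other 3 knockdown lines overlapped shRenilla. Prss8 had the fewest reads of the 8, at 47 to 117 a library. It rose in shSlpi-2 (log2 fold change 0.65, SE 0.19, limma adjusted p = 0.01002), while shSlpi-1 gave 0.19 (adjusted p = 0.547). Over both Slpi hairpins the change was 0.42 (SE 0.16, limma adjusted p = 0.0547), and that over both Serpine2 hairpins -0.11 (SE 0.16, limma adjusted p = 0.664). The shSlpi-2 call ended without shRenilla A (0.50, limma adjusted p = 0.103). The comparison of both Slpi hairpins passed without shSlpi-2 A (0.44, limma adjusted p = 0.0444) and without shSerpine2-1 A or B (0.42, adjusted p = 0.0461 and 0.0483). It also passed on the deposited scale, with a pseudocount of 8, with a filter at a mean of 50 and with quantile normalization (limma adjusted p 0.0428 to 0.0499).

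Of the 2 Kunitz inhibitors, Spint2 was above shRenilla in every knockdown library, whereas Spint1 lay on both sides of it. Spint2 (minus strand of chr7:29256323-29281912) encodes HAI-2. It had 1567 and 1594 normalized reads in shSerpine2-1, 1907 and 2048 in shSerpine2-2, 1773 and 1909 in shSlpi-1 and 1917 and 2136 in shSlpi-2, against 1482 and 1486 in shRenilla. All knockdown libraries were above shRenilla, those of shSerpine2-1 by the least. Spint2 rose with Slpi lowered (log2 fold change 0.38, SE 0.05, limma adjusted p = 6.11e-05), by 0.31 in shSlpi-1 (adjusted p = 0.00306) and 0.45 in shSlpi-2 (adjusted p = 3.23e-05). It rose over both Serpine2 hairpins (0.25, SE 0.05, limma adjusted p = 0.00384), with 0.41 in shSerpine2-2 (adjusted p = 2.18e-04) and 0.09 in shSerpine2-1 (adjusted p = 0.407). The Serpine2 call ended without shRenilla B (0.25, limma adjusted p = 0.0619), and that of shSlpi-1 without shSlpi-1 B (0.26, adjusted p = 0.0565).

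Spint1 (plus strand of chr2:119237362-119249527) encodes HAI-1. It had 1043 and 1134 normalized reads in shSerpine2-1, 1269 and 1334 in shSerpine2-2, 1038 and 1019 in shSlpi-1 and 1142 and 1301 in shSlpi-2, against 1229 and 1180.1 in shRenilla. The first hairpin line of each target was below shRenilla, shSerpine2-2 was above it and shSlpi-2 spanned it. Over both Serpine2 hairpins the log2 fold change was -0.02 (SE 0.06, 95% interval -0.15 to 0.11, limma adjusted p = 0.864), and over both Slpi hairpins -0.11 (SE 0.06, limma adjusted p = 0.195). By line, the changes were -0.15 in shSerpine2-1, 0.11 in shSerpine2-2 and 0.02 in shSlpi-2 (limma adjusted p = 0.202, 0.256 and 0.864). Spint1 fell in shSlpi-1 (-0.23, limma adjusted p = 0.0333), a call that ended without any 1 of the shSlpi-1, shSerpine2-2 or shRenilla libraries (-0.20 to -0.26, adjusted p 0.0508 to 0.188), with no filter, with quantile normalization and with library totals (0.0531 to 0.0906). Over both Slpi hairpins the change was -0.15 without shSlpi-2 B. Without both shSlpi-2 libraries the comparison is that of shSlpi-1 alone with shRenilla (-0.23, limma adjusted p = 0.00288).

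The windows of 250 bases before the RefSeq start sites of the 2 inhibitor genes are shown because Spint2 passed over both hairpins of each target and Spint1 over neither pair. They are from GRCm38.p6, 5′ to 3′ on the gene's strand, for Spint1 at chr2:119237110-119237359 (plus strand) and for Spint2 at chr7:29281978-29282227 (minus strand). Capitals mark matches on either strand to an E-box (CACCTG) or a GC box (GGGCGG).
Spint1: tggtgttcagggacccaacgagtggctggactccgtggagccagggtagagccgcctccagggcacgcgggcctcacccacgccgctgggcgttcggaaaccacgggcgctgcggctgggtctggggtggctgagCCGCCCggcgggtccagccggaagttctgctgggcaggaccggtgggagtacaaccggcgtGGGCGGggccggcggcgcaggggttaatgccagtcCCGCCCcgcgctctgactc
Spint2: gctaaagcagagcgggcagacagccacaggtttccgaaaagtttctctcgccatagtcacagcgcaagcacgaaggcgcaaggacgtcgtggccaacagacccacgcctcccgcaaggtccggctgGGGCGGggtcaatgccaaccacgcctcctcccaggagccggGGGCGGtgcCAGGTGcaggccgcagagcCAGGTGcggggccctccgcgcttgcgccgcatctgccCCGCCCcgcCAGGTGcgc
The Spint2 window held 3 E-boxes, at 74, 55 and 9 bases before the start, and 3 GC boxes, none of which overlap. The Spint1 window held 3 GC boxes and no E-box. Of 32851 RefSeq start sites, 17.2% had at least 1 E-box in such a window and 0.247% had 3 or more, while 32.7% had a GC box and 8.47% had 3 or more. GC content was 72.8% for Spint1 and 69.6% for Spint2, beside a median of 52.4% over all start sites. No matches in either window were found to AACCGGTT (a grainyhead site, in 0.116% of windows), TGANTCA (AP-1, in 6.75%), CCAAT (in 33.8%) or TATAAA (in 12.4%). These matches describe letters only, and no binding was measured.

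Among the secreted proteases, Prss23 and Htra1 rose with either inhibitor lowered. Prss23 (minus strand of chr7:89507783-89527187) had 1111 and 1163 normalized reads in shSerpine2-1, 1068 and 1105 in shSerpine2-2, 1202 and 1153 in shSlpi-1 and 1614 and 1518 in shSlpi-2, against 929 and 935 in shRenilla. All knockdown libraries were above shRenilla, and shSlpi-2 stood clear of the rest. The log2 fold change was 0.25 over both Serpine2 hairpins (SE 0.05, limma adjusted p = 0.00284) and 0.54 over both Slpi hairpins (SE 0.05, limma adjusted p = 1.13e-06). It rose in each line, by 0.29 in shSerpine2-1 (adjusted p = 0.00638), 0.22 in shSerpine2-2 (adjusted p = 0.0129), 0.34 in shSlpi-1 (adjusted p = 0.00127) and 0.75 in shSlpi-2 (adjusted p = 1.08e-07). Without shRenilla A or B or the line's own library B, the calls of shSerpine2-1 (0.25 to 0.29, limma adjusted p 0.0524 to 0.101) and shSerpine2-2 (0.20 to 0.22, adjusted p 0.0682 to 0.114) ended. The calls over both hairpins held in every such test.

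Htra1 (plus strand of chr7:130936111-130985660) had 2463 and 2568 normalized reads in shSerpine2-1, 2659 and 2627 in shSerpine2-2, 2524 and 2760.4 in shSlpi-1 and 2997 and 2597 in shSlpi-2, against 2099 and 2109 in shRenilla. Every knockdown library was above shRenilla, and the 4 knockdown lines overlapped one another in part. It rose by 0.29 over both Serpine2 hairpins (SE 0.06, limma adjusted p = 0.00163) and by 0.37 over both Slpi hairpins (SE 0.06, limma adjusted p = 1.00e-04). It also rose in each line, from the smallest change of 0.26 in shSerpine2-1 (limma adjusted p = 0.0178) to the largest of 0.41 in shSlpi-2 (adjusted p = 9.58e-05). The shSerpine2-1 call ended without any 1 of its own or the shRenilla libraries (0.23 to 0.29, limma adjusted p 0.0790 to 0.171) and with no filter (0.0862), and that of shSlpi-1 without shSlpi-1 B (0.26, adjusted p = 0.0527). Htra1 lies within the span of Fgfr2 on the other strand, and whether counting used strand is not given in the sources used here. Fgfr2 fell over both Slpi hairpins (-0.29, limma adjusted p = 0.00620), and its change over both Serpine2 hairpins was -0.06 (adjusted p = 0.575).

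Prss22 (minus strand of chr17:23993534-23998100) encodes tryptase epsilon, an airway protease known in human to activate pro-urokinase, and was the only one of the 8 to fall over both hairpins of a target. It had 85.8 and 88.2 normalized reads in shSerpine2-1, 128 and 113 in shSerpine2-2, 106 and 109 in shSlpi-1 and 106 and 134 in shSlpi-2, against 146 and 136 in shRenilla. All knockdown libraries were below shRenilla, with shSerpine2-1 lowest and library B of shSlpi-2 just under the control. It fell over both Serpine2 hairpins (log2 fold change -0.46, SE 0.13, limma adjusted p = 0.0191) and in shSerpine2-1 (-0.69, SE 0.15, adjusted p = 0.00764), while shSerpine2-2 gave -0.23 (adjusted p = 0.278). Over both Slpi hairpins the change was -0.31 (SE 0.13, limma adjusted p = 0.0755), with -0.39 in shSlpi-1 (adjusted p = 0.0889) and -0.23 in shSlpi-2 (adjusted p = 0.227). Prss22 had 76 to 147 reads a library. The call over both Serpine2 hairpins ended without shRenilla A or B or shSerpine2-2 B (-0.40 to -0.51, limma adjusted p 0.0696 to 0.149), and with no filter (0.0530). That of shSerpine2-1 ended without any 1 of its own or the shRenilla libraries (-0.63 to -0.74, adjusted p 0.0567 to 0.0742). Without shSlpi-2 B the comparison of both Slpi hairpins passed (-0.39, limma adjusted p = 0.0219), as did shSlpi-1 without shSlpi-2 A or B (-0.39, adjusted p = 0.0469 and 0.0491).

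Furin (minus strand of chr7:80388585-80405436) had 1099 and 1060.0 normalized reads in shSerpine2-1, 1379 and 1274 in shSerpine2-2, 1079 and 1033 in shSlpi-1 and 1264 and 1338 in shSlpi-2, against 1102 and 1143 in shRenilla. The second hairpin line of each target was above shRenilla and the first line below it. Over both hairpins of a target the log2 fold change was 0.09 for Serpine2 (SE 0.05, limma adjusted p = 0.247) and 0.06 for Slpi (SE 0.05, limma adjusted p = 0.405). Furin rose in shSerpine2-2 (0.24, limma adjusted p = 0.00984) and in shSlpi-2 (0.21, adjusted p = 0.0120), and the first lines gave -0.06 and -0.09 (adjusted p = 0.638 and 0.377). Without shRenilla A both calls ended (0.21 and 0.19, limma adjusted p = 0.0786 and 0.0888), and that of shSerpine2-2 also without its library A (0.18, adjusted p = 0.134). Scaling by library totals ended the shSlpi-2 call (0.13, limma adjusted p = 0.107), as did a fit of the groups compared alone (0.21, adjusted p = 0.0528).

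**Figure D2:**
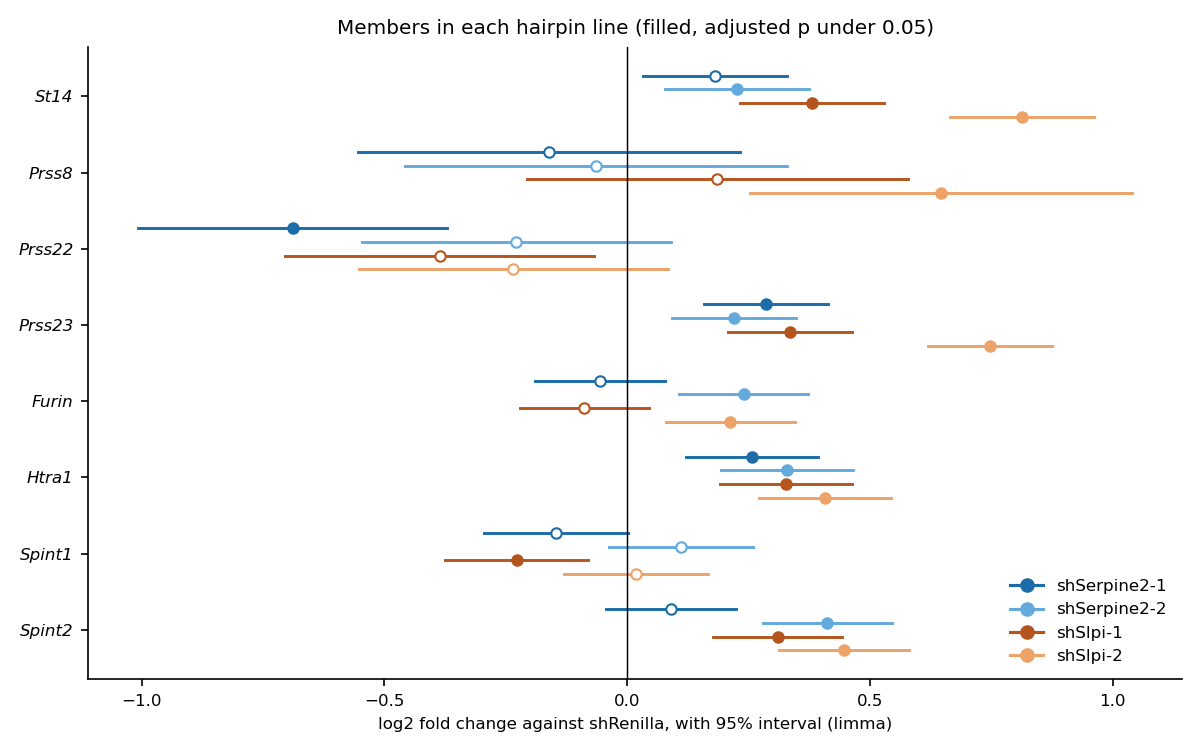
Log2 fold change against shRenilla (horizontal axis) with its 95% interval from limma for each gene (rows) in the 4 hairpin lines (colours); filled points have an adjusted p under 0.05. St14, Prss23 and Prss8 reach 0.81, 0.75 and 0.65 in shSlpi-2, Htra1 lies between 0.26 and 0.41 in the 4 lines, and the points of Furin and Spint1 alternate between first and second hairpins.

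By line, 3 of 8 transcripts changed in shSerpine2-1 (2 higher, 1 lower), beside 10.5% of all genes tested (5.09% higher, 5.38% lower). In shSerpine2-2, 5 changed, all higher, beside 27.5% (14.2% higher, 13.4% lower). In shSlpi-1, 5 changed (4 higher, 1 lower), beside 17.5% (7.65% higher, 9.88% lower). In shSlpi-2, 6 changed, all higher, beside 42.4% (20.4% higher, 21.9% lower). Prss23 and Htra1 were called in all 4 lines. In each line, the libraries of 7 of 8 transcripts did not overlap those of shRenilla, beside 57.8% of genes in shSerpine2-1, 68.9% in shSerpine2-2, 60.2% in shSlpi-1 and 66.7% in shSlpi-2. The 3 calls of shSerpine2-1 all ended without shRenilla A or B or shSerpine2-1 B. In those fits 1 library of a group remained, and fewer of all genes passed too.

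The cells with Serpine2 lowered were then compared with those with Slpi lowered. This comparison does not separate the inhibitors, since Slpi was also low in shSerpine2-1 and Serpine2 in both Slpi lines. St14, Prss8 and Prss23 were lower with Serpine2 lowered than with Slpi lowered, and the other 5 did not pass, beside 17.5% of genes changed (10.3% higher, 7.21% lower). The log2 difference was -0.39 for St14 (SE 0.05, limma adjusted p = 5.92e-05), -0.53 for Prss8 (SE 0.13, adjusted p = 0.0109) and -0.29 for Prss23 (SE 0.04, adjusted p = 2.78e-04). The libraries of the 2 targets did not overlap for St14 and Prss8, beside 8.83% of genes, whereas those of Prss23 overlapped. Without both shSlpi-2 libraries, shSlpi-1 alone stood for Slpi. St14 then stayed lower (-0.18, limma adjusted p = 0.0281), but Prss8 (-0.30, adjusted p = 0.233) and Prss23 (-0.08, adjusted p = 0.254) did not pass. Furin (0.18, adjusted p = 0.0109) and Spint1 (0.21, adjusted p = 0.00353) passed as higher in that fit. The Prss8 call also ended without shSerpine2-1 A (-0.43, limma adjusted p = 0.0642) or shSlpi-1 A (-0.49, adjusted p = 0.0507). Spint2 passed without shSlpi-2 A (-0.17, limma adjusted p = 0.00221) and with quantile normalization (-0.15, adjusted p = 0.0380), and Htra1 (-0.13, adjusted p = 0.0131) and Spint1 (0.13, adjusted p = 0.0306) without shSlpi-2 B. With hairpin lines as units 0 of 8 passed, as did 0 of all genes tested. In that fit 2 of the 8 had an unadjusted p under 0.05, and the share of all genes at that p was not computed.

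The 2 hairpins of a target also differed. shSerpine2-1 was lower than shSerpine2-2 for 4 of 8 transcripts (Furin, Spint1, Spint2 and Prss22) and higher for none, beside 14.7% of genes changed (6.98% higher, 7.69% lower). shSlpi-1 was lower than shSlpi-2 for 4 (St14, Prss23, Furin and Spint1) and higher for none, beside 26.1% (13.7% higher, 12.3% lower). The libraries did not overlap for 6 of 8 transcripts in each of these comparisons, beside 64.1% and 58.1% of genes. Furin and Spint1 were therefore lower with the first hairpin than with the second for both targets. Between the targets, Serpine2 against Slpi hairpins, their log2 differences were 0.03 and 0.09 (limma adjusted p = 0.688 and 0.242). The sizes are given in the closing section.

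Ratios between genes of the same library were formed on reads per kilobase of annotated exons, as a description without a test. The ratio of St14 to Spint1, the protease to its inhibitor, was 0.243 and 0.221 in shSerpine2-1, 0.199 and 0.200 in shSerpine2-2, 0.285 and 0.277 in shSlpi-1 and 0.359 and 0.285 in shSlpi-2, against 0.181 and 0.187 in shRenilla. Every knockdown library was above the control, and every Slpi library above every Serpine2 library. The ratio of St14 to Spint2 was 0.262 ± 0.00518 in shSerpine2-1, 0.216 ± 0.00296 in shSerpine2-2, 0.259 ± 0.0221 in shSlpi-1 and 0.319 ± 0.0472 in shSlpi-2, against 0.246 ± 0.00155 in shRenilla (SD, n = 2 each). Here shSerpine2-1 and shSlpi-2 were above the control, shSerpine2-2 was below it and shSlpi-1 spanned it. The ratio of Spint2 to Spint1 was 0.883 ± 0.0420 in shSerpine2-1, 0.923 ± 0.0137 in shSerpine2-2, 1.09 ± 0.0715 in shSlpi-1 and 1.01 ± 0.0153 in shSlpi-2, against 0.749 ± 0.0232 in shRenilla, so that HAI-2 made up more of the inhibitor transcripts in every knockdown line.

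**Figure D3:**
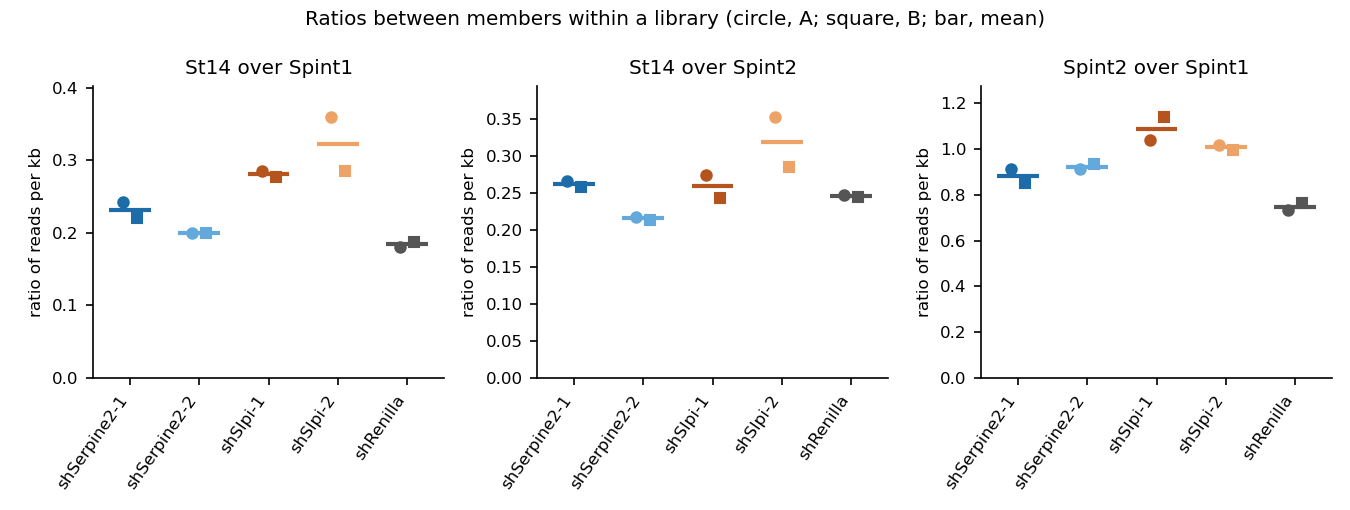
Ratio of reads per kilobase of exon (vertical axes, from 0) for St14 over Spint1, St14 over Spint2 and Spint2 over Spint1 in the 10 libraries, by group; circles are library A, squares library B and bars the group mean. St14 over Spint1 and Spint2 over Spint1 are above both shRenilla libraries in all 8 knockdown libraries, while St14 over Spint2 is below them in shSerpine2-2.

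Between genes, reads per kilobase of exon gave the order of levels. In shRenilla, Htra1 was highest (731 ± 2.52), followed by Spint1 (435 ± 12.6), Spint2 (326 ± 0.629), Prss23 (248 ± 1.17), Furin (122 ± 3.13), Prss22 (106 ± 5.83), St14 (80.2 ± 0.351) and Prss8 (36.7 ± 5.28), and no neighbours in that order overlapped. St14 ranked above Prss22 in all 4 knockdown lines, although their libraries overlapped in shSerpine2-2. Spint2 ranked above Spint1 in both Slpi lines, at 404 ± 21.1 against 372 ± 5.03 in shSlpi-1. In shSlpi-2, Spint2 (445 ± 34.1), Spint1 (442 ± 40.5) and Prss23 (416 ± 18.1) overlapped, as did Furin (142 ± 5.68) and St14 (141 ± 10.1). Exon length counts all annotated exons, 9.178 kb for Furin, and may exceed that of the transcripts made. Of the 8 genes, 5 lie on chromosome 7. Reads of St14, Prss8, Prss23 and Furin may also include those of a gene on the other strand that overlaps each in part.

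Likeness of profiles was measured as the root mean square difference of centred log2 values over the 10 libraries, with 9889 genes searched. St14 was most like Prss23 (0.0634), followed by Gipc1 (0.0672), beside a spread of 0.278 for St14 itself. Prss23 (own spread 0.245) was most like Dsg2 (0.0492), a desmosomal cadherin, and the transcription factor Bhlhe40 (0.0575). Prss22 (own spread 0.245) was most like Areg (0.115), the EGF receptor ligand amphiregulin, and Ltbp3 (0.121), less closely than St14 and Prss23 were to theirs. Htra1 (own spread 0.151) was most like the transcription factor Ets1 and Ncaph2 (0.0363 each). Spint2 (own spread 0.183) was most like the splicing factor Puf60 (0.0409) and the peroxiredoxin Prdx2 (0.0425). Among the 8, the closest pairs were St14 with Prss23 (0.0634) and Furin with Spint1 (0.0931), and the least alike were St14 and Prss22 (0.390). Genes of a library share its depth and scaling, so these values are descriptions.

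**Figure D4:**
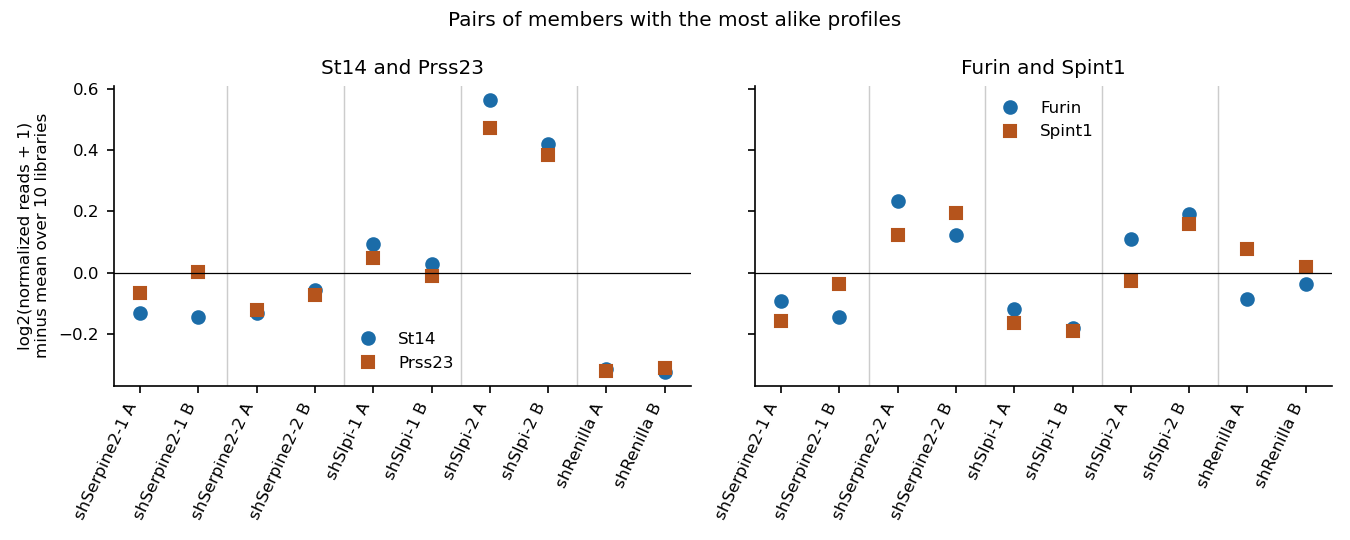
Centred log2(normalized reads + 1) (vertical axis) in each library (horizontal axis) for the pairs of genes with the most alike profiles, St14 with Prss23 on the left and Furin with Spint1 on the right. The first pair is highest in shSlpi-2 and lowest in shRenilla, and the second pair is lower in the first than in the second hairpin line of each target.

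Genes around this system were read from lists, over both hairpins of each target unless a line is named. Of 12 genes tied to matriptase and prostasin as substrates or their receptors, 7 were tested. Over both Serpine2 hairpins 4 rose and none fell, with a median of 0.16, beside 10.7% of all genes higher and 10.8% lower. Over both Slpi hairpins 4 rose and 1 fell, with a median of 0.18, beside 16.5% of all genes higher and 18.3% lower. Those that rose in both comparisons include Epcam (0.29 with Serpine2 lowered and 0.59 with Slpi lowered), Met (0.18 and 0.18) and Cdcp1 (0.16 and 0.20). Epcam is a surface glycoprotein that matriptase can cut, Cdcp1 is another surface substrate, and Met is the receptor of the growth factor HGF that matriptase activates. Plau, urokinase, was lower with Slpi lowered (-0.13, limma adjusted p = 0.0414). F2rl1, the protease-activated receptor PAR-2, gave -0.06 and 0.02 and did not pass (limma adjusted p = 0.440 and 0.743). Epcam is also one of the epithelial markers.

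Of 17 furin substrates, Met among them, 16 were tested. With Serpine2 lowered 3 rose (Pdgfb 0.48, Met 0.18, Itga3 0.17) and 1 fell (Lrp1 -0.16), and with Slpi lowered 3 rose and 3 fell, among them Pdgfb (0.82), Notch1 (0.24) and Ltbp1 (-0.21). The medians were -0.05 and 0.05. These 4 and 6 of 16 stand beside 21.5% and 34.8% of all genes changed, shares close to theirs. Pdgfb is a growth factor subunit, Itga3 an integrin chain, Lrp1 an uptake receptor and Ltbp1 a carrier of latent TGF-beta. Of the other 8 proprotein convertases 4 were tested. With Slpi lowered 1 fell (Pcsk4 -0.41, limma adjusted p = 0.0173), beside 18.3% of all genes lower. Over both Serpine2 hairpins none passed, beside 21.5% of all genes changed. By line, Pcsk4 passed in shSlpi-2 alone. Of the other HtrA proteases, Htra2 and Htra3 were tested, and neither passed over both hairpins of a target, although Htra3 fell in shSlpi-2.

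Of 20 other type II transmembrane serine proteases, the class of matriptase, 2 passed the filter, Tmprss11e and Tmprss11f. Tmprss11e averaged 5326 ± 178 normalized reads in shSerpine2-1, 4236 ± 256 in shSerpine2-2, 4988 ± 232 in shSlpi-1 and 3878 ± 451 in shSlpi-2, against 5285 ± 168 in shRenilla (SD, n = 2 each). It fell over both Slpi hairpins (-0.27, limma adjusted p = 0.00222), beside 18.3% of all genes lower. By line, Tmprss11e fell in shSerpine2-2 and shSlpi-2, the second hairpin of each target, and did not pass in shSerpine2-1 or shSlpi-1. Of 32 other trypsin-like Prss proteases and kallikreins 9 were tested, and 1 rose in each comparison, beside 10.7% and 16.5% of all genes higher. These were Klk10 with Serpine2 lowered (0.36, limma adjusted p = 0.0177) and Prss46 with Slpi lowered (1.07, adjusted p = 0.0164). By line, Klk10 passed in shSerpine2-1 and not in shSerpine2-2. Prss46 passed in shSlpi-2 (mean of 30.1 normalized reads) and not in shSlpi-1 (12.8), against 9.10 in shRenilla. Of 15 other genes with a Kunitz domain 6 were tested. None changed over both Serpine2 hairpins, beside 21.5% of all genes, although Aplp2 rose in shSerpine2-2. Col7a1 (0.36, limma adjusted p = 2.62e-05), the collagen of anchoring fibrils, and Aplp2 (0.27, adjusted p = 2.09e-04), a relative of the amyloid precursor, rose over both Slpi hairpins. They stand beside 16.5% of all genes higher, and Aplp2 did not pass in shSlpi-1. Of 10 serpins and other inhibitors 6 were tested. Beside Serpine2 and Slpi, Serpinb6a, an intracellular serpin, rose by 0.21 with Serpine2 lowered and by 0.20 with Slpi lowered. Wfdc2, a relative of Slpi, rose with Slpi lowered (0.56, limma adjusted p = 5.92e-04).

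Of 8 epithelial transcription and splicing regulators 6 were tested, and 3 rose and none fell in each comparison, with medians of 0.47 and 0.72, beside 10.7% and 16.5% of all genes higher. Esrp1, an epithelial splicing regulator, rose by 0.50 with Serpine2 lowered and 0.78 with Slpi lowered, and the ETS factor Elf3 by 0.89 and 1.39. Esrp2 rose with Serpine2 lowered (0.31, limma adjusted p = 0.0240) and Grhl1 with Slpi lowered (1.09, adjusted p = 0.00658). By line, Esrp2 passed in shSerpine2-1 and shSlpi-1, and not in the second hairpin of either target. Grhl1 passed in shSlpi-2 alone. Grhl2, a grainyhead factor of epithelia, gave -0.02 and 0.06 and did not pass (limma adjusted p = 0.873 and 0.524).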

How the data were processed

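RNA was sequenced from 10 libraries of 5 hairpin groups, which the sample titles name with their letters. Per the submitters' processing notes, the authors used Bowtie2, HTSeq and DESeq with genome build mm10; versions, settings and strand of counting: not given in the sources used here. The deposited values are log2 values with a floor of 6.733366499, as the variance-stabilizing transformation in DESeq, which the authors named, would leave; no label states the transformation. Inverting that form gave normalized reads, of which 100% were whole reads within 0.01 after removing each library's step. A count of 0 allows up to 3 reads, or 2.30 to 3.48 normalized reads, for counting error only. Libraries A and B differed beyond counting noise (chi-square per degree of freedom 10.9 in shSlpi-2 and 1.55 to 2.76 in the others).

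Tests used limma 3.58.1 in R 4.3.3 (eBayes with trend) on log2(normalized reads + 1) of 12299 genes (mean of 10 or more), with 5 group means fitted on all 10 libraries. P-values are two-sided and adjusted by Benjamini-Hochberg over those genes, and "rose", "fell" and "changed" mean an adjusted p under 0.05. In all, 9 comparisons were made. The groups share 1 estimate of spread, which is low for shSlpi-2, whose libraries differed most. The script was tested on simulated data. Names of 27 entries had become dates and are not named.

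All 8 genes are named, with up to 4 changed members of each list by smallest p and the 2 genes of most alike profile for each gene called over both hairpins of a target. Of those, only genes with a proper name and a mean of 50 or more were searched. A few genes taken by this rule are not reported here. Values for other listed genes are given where they bear on the 8. The genes, lists and tests were chosen with earlier results of these data known. Positions are from GENCODE M21 (GRCm38), and start sites from RefSeq (GRCm38.p6), whose table matched 5 of the 8 genes. Alternatives were other pseudocounts, filters, scalings, limma-voom, the deposited scale, smaller fits, a replicate block, hairpin lines as units and leaving out libraries.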

Additional observations from a re-analysis of the deposited data

Results flagged for a closer look

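The hairpins of a target differed for 8 combinations of gene and target, by limma's test of the difference itself. For Serpine2, shSerpine2-1 was lower than shSerpine2-2 for Furin (log2 difference -0.30, limma adjusted p = 0.00549), Spint2 (-0.32, adjusted p = 0.00320), Spint1 (-0.26, adjusted p = 0.0211) and Prss22 (-0.46, adjusted p = 0.0495). For Slpi, shSlpi-1 was lower than shSlpi-2 for St14 (-0.43, limma adjusted p = 3.52e-04), Prss23 (-0.41, adjusted p = 1.60e-04), Furin (-0.30, adjusted p = 0.00247) and Spint1 (-0.25, adjusted p = 0.0167). The Prss22 call ended under most alternatives, at limma adjusted p from 0.0505 to 0.273. Of the others, for Serpine2, Furin ended without shSerpine2-1 B or shSerpine2-2 A (adjusted p = 0.0688 and 0.0905), Spint2 without shSerpine2-1 A or shSerpine2-2 B (0.0515 and 0.0772), and Spint1 without shSerpine2-1 A, shSerpine2-2 A or shSerpine2-2 B (0.222, 0.0714 and 0.189) and with no filter on low values (0.0705). For Slpi, the Spint1 call ended without shSlpi-1 A, shSlpi-1 B or shSlpi-2 B (limma adjusted p = 0.0563, 0.0997 and 0.109) and with scaling by library totals (-0.15, adjusted p = 0.140) or a fit of the 2 lines alone (adjusted p = 0.0975). Prss8 passed between the Slpi hairpins with quantile normalization (-0.53, limma adjusted p = 0.0423). Without shSlpi-2 B, Htra1 passed (-0.18, limma adjusted p = 0.0163), and without shSlpi-2 A, Spint2 passed (-0.22, adjusted p = 0.00830). Lower Slpi went with the second Slpi hairpin and lower Serpine2 with the first Serpine2 hairpin, and the part of knockdown depth in these differences was not tested.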

How the results depend on the processing

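Of 1520 values of the 8 genes recomputed under the alternatives, 1387 kept both their sign and their side of the threshold. A call was lost by 92 and gained by 27, 14 uncalled values changed sign and 0 called values reversed. The 1520 include fits that left out a library outside the comparison, where the fold change stays the same. They also include values not called in the report, so the 1387 are not all calls that held. With no filter on low values, 3 of the 8 genes (5 in the report) changed over both Serpine2 hairpins, beside 1632 of all genes (2643 in the report). There St14 and Prss22 had limma adjusted p = 0.0511 and 0.0530. Between shSerpine2-1 and shSerpine2-2, 2 of the 8 differed (4 in the report), beside 1133 of all genes (1805 in the report). More genes are then tested. With hairpin lines as units, 0 changed over both Serpine2 hairpins, 0 over both Slpi hairpins and 0 between the targets, and 0 of all genes did so in each. That fit has fewer units. Leaving out 1 library could change how many of the 8 genes passed in each of the 9 comparisons, and how many of all genes passed. With the other alternatives, 0 to 5 of the 8 and 0 to 4176 of all genes changed over both Serpine2 hairpins (5 and 2643 in the report). Over both Slpi hairpins these were 0 to 6 of the 8 and 0 to 4937 of all genes (4 and 4281 in the report). The 6 came from the fit with shSlpi-1 alone for Slpi. Where 1 library of a group remained, it was assumed to vary like the other groups. Scaling by library totals moved the median of all genes by up to 0.10. Differences of library A from library B correlated at -0.07 to 0.07 between groups, over 10 pairs of groups. No shift shared by letter was seen, although this cannot show what the letters stand for. With the letter as a replicate block, 5 of the 8 changed over both Serpine2 hairpins and 4 over both Slpi hairpins, beside 2594 and 4256 of all genes. By line, 3, 5, 5 and 6 changed in shSerpine2-1, shSerpine2-2, shSlpi-1 and shSlpi-2, beside 1221, 3353, 2145 and 5175 of all genes. Between the targets 4 differed, beside 2149 of all genes. Between the Serpine2 hairpins 3 differed and between the Slpi hairpins 4, beside 1816 and 3186 of all genes. The block brought in Spint2 between the targets (-0.13, limma adjusted p = 0.0410) and ended Prss22 between the Serpine2 hairpins (adjusted p = 0.0571).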
